A study of Mus musculus with 4 samples.

Results

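The 9 genes described here encode transcription factors and cofactors of the pluripotency network of mouse embryonic stem (ES) cells: Pou5f1, Nanog, Zfp42, Utf1, Sall4, Esrrb, Tfcp2l1, Tbx3 and Foxd3. They were taken by symbol, as every probe set that the platform annotation pairs with one of these symbols and with no other gene, which gave 12 of the 12422 non-control probe sets on the array and 9 of the 8251 genes it names. A probe set is a group of short oligonucleotides that read out a single transcript. Pou5f1, Nanog and Tfcp2l1 had more than 1 probe set and the other 6 genes had 1 each. Total RNA of 4 mouse samples was measured on MG_U74Av2 expression arrays, each sample on its own array. R1, an established mouse ES cell line derived from the inner cell mass, gave 3 of them. Adherent R1 cells on gelatin, under standard conditions for undifferentiated growth, gave 1 array. Embryoid bodies, which are unattached clusters of ES cells, gave 2 arrays after 48 hours, titled aggregation and suspension in the labels. All R1 cultures were in DMEM with beta-mercaptoethanol and LIF, the cytokine that holds ES cells in an undifferentiated state, so the embryoid bodies were not a culture without LIF. Neurospheres, which are free-floating spheres of neural stem and progenitor cells, gave the remaining array; they came from the E13.5 telencephalon, grew in DMEM/F12 with FGF2 and contained astrocytes, glia and oligodendrocytes as contaminating cells according to the labels. Both embryoid body arrays carry the same sample identifier and description, and no label tells whether the cultures were separate, so the p-values reflect just the spread of this pair of arrays, possibly a technical one.

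Oct4, the protein of Pou5f1, is a POU-domain factor that binds the octamer sequence, commonly beside Sox2, and ES cells lose pluripotency without it. Nanog is a homeodomain factor that sustains self-renewal, and Oct4, Sox2 and Nanog occupy their own regulatory regions and those of many other ES cell genes. Sall4, Esrrb, Tfcp2l1 and Tbx3 are further factors of this circuit, of which the last 3 are linked to the naive state and to signals such as LIF and Wnt. Zfp42 (Rex1) and Utf1 are target genes widely used as markers of undifferentiated cells. Oct4 and Nanog are silent in neural progenitors, whereas Sox2 is used in both cell types.

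To show the regulatory DNA just ahead of these genes, the 250 bases before each annotated start were read from the RefSeq promoter table (GRCm38.p6). The table held 10 such windows for 7 of the 9 genes; Sall4 and Tbx3 were not matched. The windows of Pou5f1 and Nanog, the core factors, and of Zfp42 and Utf1, the target genes, are printed 5′ to 3′ on the strand of the gene and end at the base before the start; for Pou5f1 and Nanog this is the first of the 2 windows listed. Capitals mark matches, on either strand, to the octamer ATGCAAAT or its shorter form ATGCAAA, the SOX core ATTGTT or CATTGT, the KLF box GGGTGTGG and the SP box GGGCGG.
Pou5f1 chr17:35505782-35506031 (+): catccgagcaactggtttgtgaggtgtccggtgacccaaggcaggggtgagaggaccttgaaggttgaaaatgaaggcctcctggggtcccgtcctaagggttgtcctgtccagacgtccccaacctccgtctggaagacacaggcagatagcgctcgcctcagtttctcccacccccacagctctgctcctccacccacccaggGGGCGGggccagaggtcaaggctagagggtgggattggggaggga
Nanog chr6:122707239-122707488 (+): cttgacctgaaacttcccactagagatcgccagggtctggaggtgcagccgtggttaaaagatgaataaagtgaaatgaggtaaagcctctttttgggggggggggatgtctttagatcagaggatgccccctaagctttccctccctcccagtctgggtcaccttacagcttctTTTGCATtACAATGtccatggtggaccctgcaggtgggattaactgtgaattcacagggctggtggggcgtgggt
Zfp42 chr8:43307010-43307259 (-): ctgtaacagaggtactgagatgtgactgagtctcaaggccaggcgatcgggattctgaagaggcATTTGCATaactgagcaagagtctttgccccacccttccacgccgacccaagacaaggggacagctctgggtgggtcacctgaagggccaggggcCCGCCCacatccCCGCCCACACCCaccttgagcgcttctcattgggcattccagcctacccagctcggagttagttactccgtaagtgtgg
Utf1 chr7:139943606-139943855 (+): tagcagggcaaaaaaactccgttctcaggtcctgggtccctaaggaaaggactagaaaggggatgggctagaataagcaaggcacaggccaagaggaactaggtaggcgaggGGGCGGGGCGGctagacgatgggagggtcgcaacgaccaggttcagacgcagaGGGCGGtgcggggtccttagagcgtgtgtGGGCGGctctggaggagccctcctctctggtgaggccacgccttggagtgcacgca

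The full octamer was found in 1.601% of the 32851 windows in the table and, among the genes described here, in that of Zfp42, 186 to 179 bases before the start. In the Nanog window the shorter octamer form, at 75 to 69 bases, and the SOX form CATTGT, at 67 to 62 bases, stood with 1 base between them. That octamer form was present in 4.125% and that SOX form in 10.69% of all windows, and both were added to the search after the windows had been seen. Utf1 held 4 SP boxes, of which 2 overlap by 1 base, Zfp42 held 2 and Pou5f1 held 1 in the printed window, against 32.74% of all windows with at least 1. The KLF box of Zfp42, present in 3.196% of windows, overlapped one of its SP boxes. ATTGTT (9.424% of windows) was found in the first window of Esrrb and the second of Pou5f1, and TATAAA (12.37%) in that of Tfcp2l1. The site TCAAGGTCA of estrogen-related receptors such as Esrrb (0.3866%) was found in 0 of the 10 windows. These are matches of letters only, and no binding was measured.

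All signals below are linear intensities, rescaled so that every array has the same trimmed mean, 500. The deposited trimmed means were 32.54 in aggregation and 29.46 in neurospheres, against 1485 in suspension and 1490 in adherent cells. The embryoid body arrays, whose spread the p-values reflect, thus lay on opposite sides of this split. Its part in the results was not tested. Differences are on the log2(signal + 32) scale, which understates the change of dim probe sets. The 10th percentile of all scaled signals lay between 17.4 and 33.8 and the median between 178 and 242 per array, and without detection calls a low signal cannot be told from background. The 3′ to 5′ ratios of the Gapdh control probe sets were 0.8037 to 0.9462 and those of actin 1.03 to 1.203. The marker genes that were called went with the labels. Of 10 other ES cell marker genes, 9 were called lower in neurospheres, against 5.38% of all probe sets, with summed signals of 46340 to 50710 on the R1 arrays and 2112 in neurospheres. Of 7 neural progenitor markers on the array, 3 were called higher in neurospheres, against 4.56% of all probe sets. Their sums were 714.7 to 1254 on the R1 arrays and 47850 in neurospheres, most of it from Fabp7 (41870), a lipid-binding protein of radial glia. Sums over the 5 astrocyte markers were 442.2 to 1286 on the R1 arrays and 5388 in neurospheres, where Aldoc alone was called, and sums over the 5 oligodendrocyte markers were 697.6 to 1504 and 2204, with none called; the part of these cells in the differences below was not tested. In such bulk RNA, fewer cells of a type and less RNA per cell cannot be told apart.

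The comparison of neurospheres with R1 cells asked how far each pluripotency gene differed between neural and ES cells. The genes fell into a set with large differences (Pou5f1, Nanog, Sall4, Zfp42, Utf1 and Tfcp2l1, on 7 probe sets) and 3 genes that did not pass the test (Esrrb, Tbx3 and Foxd3). In limma's test 7 of the 12 probe sets were lower in neurospheres at an adjusted p under 0.05, as were 5.38% of all probe sets, and 0 were higher, against 4.56% of all. Without adjustment, 9 of the 12 had a p under 0.05. The neurosphere signal was below that of every R1 array for 11 of the 12, against 25.3% of all probe sets, and at least 2-fold below the lowest R1 array for 9, against 7.98%. The median difference was -2.77 over the 12 and 0.16 over all probe sets; the latter was -0.01 after scaling to the median and 0.01 after quantile normalization. With the single neurosphere array, the test assumes that it varies like the embryoid body arrays, and an exact permutation over the arrays has 4 assignments and cannot go below p = 0.25. When the variance was moderated without an intensity trend, Pou5f1 probe set 103075_at was the only one of the 12 still called (adjusted p = 0.041). The other 6 then had adjusted p-values of 0.0565 to 0.0816 in limma. Of the marker genes above, 2 of 10 ES cell, 1 of 7 neural progenitor and 0 of 5 astrocyte markers were then called.

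**Figure D1:**
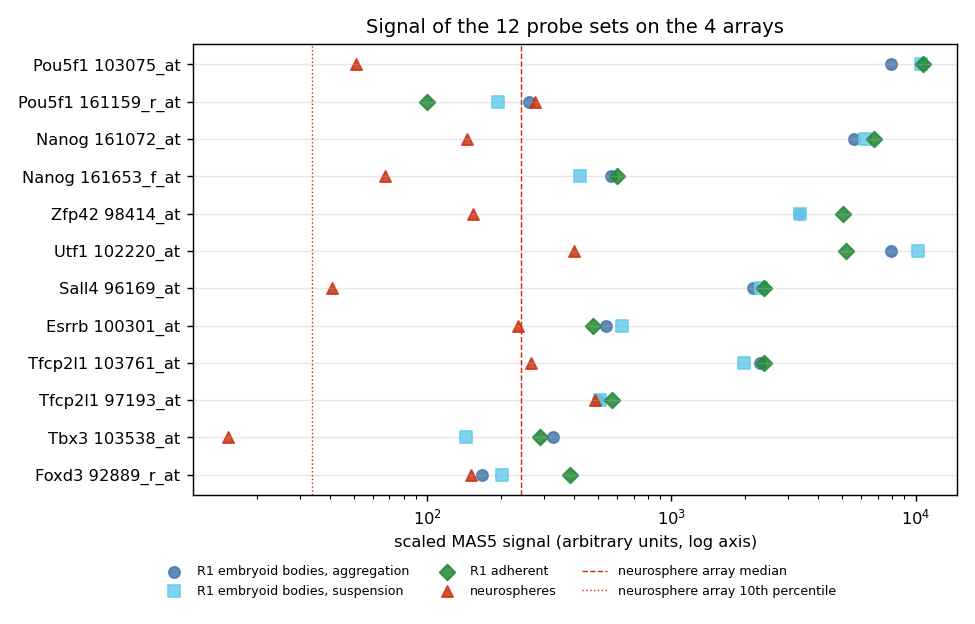
Scaled signal (log axis, arbitrary units) of the 12 probe sets of the 9 pluripotency genes on each of the 4 arrays; each point is 1 array. For Pou5f1 103075_at, Nanog 161072_at, Sall4, Zfp42 and Utf1 the neurosphere point lies at least 13-fold below the lowest R1 point, while for Tfcp2l1 97193_at the 4 points lie between 485.3 and 570.3.

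Pou5f1 gave a signal of 7911 in aggregation, 10550 in suspension, 10690 in adherent cells and 51.3 in neurospheres on probe set 103075_at, which was designed on the mRNA M34381. The 3 R1 arrays lay within 1.351-fold of each other, and the lowest of them was 154.2-fold above the neurospheres. Expression fell by 6.89 ± 0.27 (SE) on the log2 scale (limma, adjusted p = 2.38e-06), the fourth largest fall among all probe sets on the array. The embryoid body mean was 9229 ± 1864 (SD, n = 2).

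Nanog gave 5592, 6232 and 6723 in aggregation, suspension and adherent cells and 145.4 in neurospheres on probe set 161072_at. Again the R1 arrays were close, at 1.202-fold from lowest to highest, and the lowest stood 38.47-fold above the neurospheres. The difference was -5.16 ± 0.26 (SE; limma, adjusted p = 1.13e-05). Its second probe set, 161653_f_at, read 565.2, 421.7 and 596.9 on the same R1 arrays and 67.01 in neurospheres. This smaller fall, -2.53 ± 0.52 (adjusted p = 0.0171), was no longer called when the aggregation array was left out (-2.43, adjusted p = 0.0528). A fit without 1 embryoid body array has to take the remaining R1 arrays as a single group; with all 3 R1 arrays in that single group this probe set was still called (-2.49, adjusted p = 0.00367).

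Sall4, a zinc finger protein that binds with Oct4 and Nanog and recruits histone deacetylase complexes, had signals of 2165, 2321 and 2388 in aggregation, suspension and adherent cells. In neurospheres it stood at 40.9, near the 10th percentile of that array, 33.8. The R1 values spanned 1.103-fold, the narrowest range among the 12 probe sets. Sall4 fell by 5.01 ± 0.32 (SE, adjusted p = 3.05e-05).

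Zfp42, the Rex1 zinc finger protein whose window carries the octamer printed above, read 3339 in aggregation, 3350 in suspension, 5026 in adherent cells and 153.5 in neurospheres. It fell by 4.48 ± 0.27 (SE, adjusted p = 2.52e-05). Utf1, a chromatin-bound protein of undifferentiated cells, read 7939, 10260 and 5178 on those R1 arrays and 397.5 in neurospheres, and fell by 4.00 ± 0.26 (SE, adjusted p = 4.18e-05). In both genes every R1 array was far above the neurospheres, by at least 21.75-fold for Zfp42 and 13.03-fold for Utf1. Yet the R1 arrays themselves were less alike than for Nanog or Sall4: adherent cells held the highest Zfp42 signal and the lowest Utf1 signal.

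Of the factors linked to the naive state, only Tfcp2l1, a grainyhead-like factor that acts downstream of LIF and Stat3, passed the test. Its probe set 103761_at read 2299 in aggregation, 1977 in suspension, 2390 in adherent cells and 264.9 in neurospheres, a difference of -2.95 ± 0.29 (SE, adjusted p = 0.000524). Esrrb, an orphan nuclear receptor that can stand in for Nanog in self-renewal, read 537.4, 629.5 and 479.4 on the R1 arrays and 236.2 in neurospheres. Although the lowest R1 array was 2.029-fold above the neurospheres, the difference of -1.06 ± 0.44 (SE) did not pass (adjusted p = 0.18).

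Tbx3, a T-box factor that supports self-renewal of ES cells, read 327.5 in aggregation, 144.5 in suspension, 290.8 in adherent cells and 15.24 in neurospheres. The neurosphere value lies under the 10th percentile of its array, so no fold is given. The groups did not overlap, but the difference of -2.59 ± 0.75 (SE) missed the threshold (adjusted p = 0.0617). This call turned on the processing: Tbx3 passed with 1 added before log2 (-3.96, adjusted p = 0.0261), after scaling to the median (-3.37, 0.0138), with dim probe sets removed (-2.59, 0.0281), with the brightest probe set per gene of those (-2.59, 0.0275) and with all R1 arrays as a single group (-2.53, 0.0406). Foxd3, a forkhead factor of ES cells and neural crest, read 168.3, 202.4 and 385.3 on the R1 arrays and 151.7 in neurospheres, a difference of -0.71 ± 0.63 (SE, adjusted p = 0.554). Its values lay below the median of the array everywhere except in adherent cells.

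**Figure D2:**
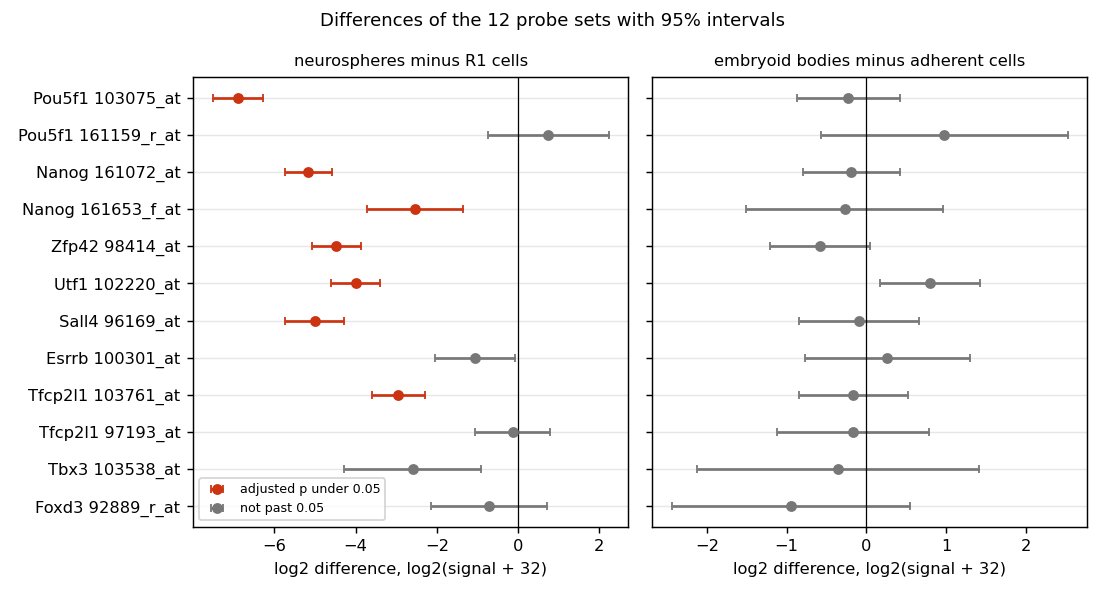
Log2 differences of the 12 probe sets with 95% confidence intervals from limma, for neurospheres minus R1 cells and for embryoid bodies minus adherent cells; the vertical line marks no difference. In the first comparison the values run from -6.89 for Pou5f1 103075_at to 0.74 for Pou5f1 161159_r_at, and in the second all but that of Utf1 have an interval that includes 0.

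The 3 genes with a pair of probe sets show how far the reading depends on the probe set. For Pou5f1 the second probe set, 161159_r_at, read 261.8 in aggregation, 195.6 in suspension, 99.46 in adherent cells and 276.5 in neurospheres. Here the neurospheres were the highest of the 4 arrays and the adherent cells the lowest, opposite to 103075_at, and the difference from R1 cells, 0.74 ± 0.66 (SE), did not pass (adjusted p = 0.55). For Tfcp2l1 the second probe set, 97193_at, read 498.5, 510.5 and 570.3 on the R1 arrays and 485.3 in neurospheres, nearly the same level on all 4, with a difference of -0.14 ± 0.41 (adjusted p = 0.88). The second Nanog probe set moved the same way as the first, as given above. Suffixes r and f are the array maker's marks for probe sets designed under relaxed rules or on sequence shared within a family. The Foxd3 probe set has the r mark too, as do those used below for Sox2, Tdgf1, Col1a2 and Sox3. That of Chd4 has the f mark.

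Whether the probe sets of a gene differed in their response was tested in limma on the log2 difference between the brightest and each other probe set, over 2582 such pairs of 2073 genes; this test was added after the data had been seen. For Pou5f1 the bright probe set was 30.22, 53.92 and 107.5 times the other in aggregation, suspension and adherent cells and 0.1855 times in neurospheres. That difference in response, -7.64 ± 0.71 (SE, adjusted p = 0.00827), was the largest of all pairs, and 0.658% of pairs were called; without the intensity trend it had an adjusted p of 0.156 and 0 pairs were called (327 at an unadjusted p under 0.05). For Tfcp2l1 the ratio was 4.612, 3.872 and 4.19 on the R1 arrays and 0.5458 in neurospheres, a difference of -2.81 (95% interval -3.89 to -1.73, adjusted p = 0.059) that did not pass. For Nanog it was 9.892, 14.78 and 11.26 against 2.169 (-2.63, interval -3.96 to -1.30, adjusted p = 0.132), which also missed the threshold. A called difference in response was thus rare, while a second probe set that did not share the call of the first was common. Of 227 pairs whose brighter probe set was called lower in neurospheres, the other probe set was also called lower in 54 (23.79%) and had a positive difference in 79 (34.8%). Over all 2582 pairs, 36.33% had differences of opposite sign. The brighter probe set was picked by its mean over all 4 arrays, most of them R1, so these shares cannot show which probe set to trust. The statements on Pou5f1, Nanog and Tfcp2l1 rest on the brighter 103075_at, 161072_at and 103761_at, and which transcripts the second probe sets read was not tested.

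**Figure D3:**
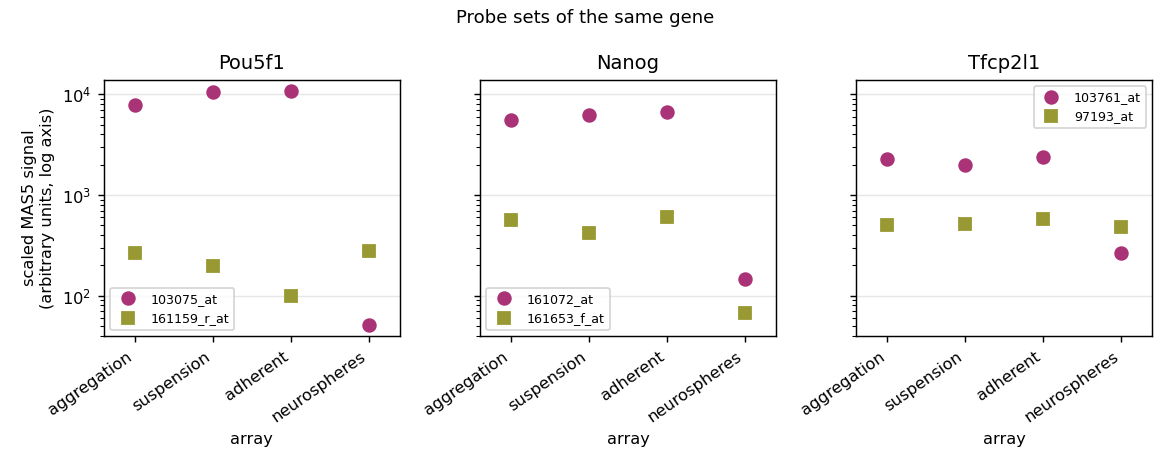
Scaled signal (log axis, arbitrary units) of both probe sets of Pou5f1, Nanog and Tfcp2l1 on the 4 arrays, with a different marker for each probe set. The bright Pou5f1 probe set drops to 51.3 in neurospheres while the other reads 276.5 there, and the second Tfcp2l1 probe set stays between 485.3 and 570.3.

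Embryoid bodies and adherent cells were compared to see whether unattached growth for 48 hours with LIF went with a change in these genes. Pou5f1, Nanog, Sall4 and Tfcp2l1 differed little on their bright probe sets: -0.23 (95% interval -0.87 to 0.42), -0.19 (-0.79 to 0.42), -0.09 (-0.84 to 0.66) and -0.16 (-0.85 to 0.53). Those intervals reach down to -0.87 and up to 0.66, so equal levels are not shown. The value for Sall4 turned to 0.02 under quantile normalization. In limma's test 0 of the 12 probe sets were called, as were 0% of all 12422, of which 1272 (10.24%) had an unadjusted p under 0.05.

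Utf1 alone among the 12 had an unadjusted p under 0.05 in limma, and it did not pass after adjustment (adjusted p = 0.432). Its embryoid body mean of 9101 ± 1644 (SD, n = 2) was 1.758-fold the adherent value of 5178, a difference of 0.80 (95% interval 0.18 to 1.42), and both embryoid body arrays were above the adherent array. Zfp42 lay the other way, with an embryoid body mean of 3344 ± 8.45 (SD, n = 2) below the adherent value of 5026, a difference of -0.58 (interval -1.21 to 0.05, adjusted p = 0.504). Foxd3 had a mean of 185.3 ± 24.1 (SD, n = 2) in embryoid bodies and its adherent value, 385.3, was 2.079-fold that, with a difference of -0.95 (interval -2.44 to 0.55, adjusted p = 0.586). Esrrb was at 583.4 ± 65.2 (SD, n = 2) against 479.4, a difference of 0.26 that turned to -0.09 after scaling to the median.

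Both embryoid body arrays were below the adherent array for 8 of the 12 probe sets and above it for 3 (Utf1, Esrrb and Pou5f1 161159_r_at), with Tbx3 in between; its difference of -0.36 turned to 0.16 when the suspension array was left out. Over all probe sets these shares were 25.8% below and 50.2% above, and the median difference was 0.23 over all and -0.18 over the 12. Scaling to the median brought the median over all to -0.06, and then 10 of the 12 were below (40.04% of all) and 2 above (35.95%); quantile normalization gave 0.02, with 7 below (34.07%) and 3 above (35.68%). No probe set on the array was called in this comparison, so the lack of a call in marker genes of other lineages tells nothing about them. Summed signals of the 8 endoderm markers were 1175 and 1169 in embryoid bodies and 799.5 in adherent cells, those of the 6 primitive streak markers 2175, 1867 and 982.2, and those of the 8 fibroblast markers 4736, 4580 and 1709. In limma 0, 1 and 3 of these had an unadjusted p under 0.05, against 10.24% of all probe sets. Most of the fibroblast sum came from Col1a2, at 3062, 3428 and 1123. The part of such lineages in the values above was not tested.

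The aggregation and suspension arrays were set side by side without a test. Tbx3 was the only one of the 12 probe sets at least 2-fold apart, 2.267-fold higher in aggregation, where 24.2% of all probe sets were that far apart in either direction. Aggregation was higher for 4 probe sets and suspension for 8; scaling to the median made this 6 and 6, with changes of sign in Zfp42 and Tfcp2l1 97193_at, which differed by -0.01 and -0.03. Pou5f1 103075_at differed by -0.41 and Utf1 by -0.37 on the log2 scale, both lower in aggregation, and Nanog 161072_at by -0.16. Over the 3 R1 arrays, 9 of the 12 probe sets stayed within a 2-fold range, against 46.68% of all probe sets and 79.79% of the 4760 whose signal reached 236, the highest R1 array median, on every R1 array. Those outside the range were Tbx3 (2.267), Foxd3 (2.29) and Pou5f1 161159_r_at (2.632), with lowest R1 signals of 144.5, 168.3 and 99.46. These 3 fell short of 236, which the 9 within the range reached on every R1 array. The share of bright probe sets, 79.79%, is therefore one to set beside those 9 and not beside all 12. This difference was not tested.

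Genes that work with these factors were taken from lists. Of 16 network partners on the array, 10 were called lower in neurospheres and 0 higher, against 5.38% and 4.56% of all probe sets. Their median difference was -2.21. The largest falls were those of Nr0b1 (-7.09), the orphan receptor Dax1, Klf5 (-5.57) and Klf4 (-5.45), Kruppel-like factors of self-renewal, and Mycn (-5.28), a proto-oncogene of the Myc family. Sox2, the partner of Oct4 on composite sites, stood apart: it read 8859, 9981 and 9397 in aggregation, suspension and adherent cells and 6644 in neurospheres, and was not called (-0.50 ± 0.25 SE, adjusted p = 0.27). Stat3 (-0.19, adjusted p = 0.748) and Myc (1.04, adjusted p = 0.386) were not called either. The call of Trim28 (-1.53) ended once the 3 R1 arrays were taken as a single group (-1.61, adjusted p = 0.0623), with no array left out. That of Zfp281 (-1.50) held in that grouping (adjusted p = 0.0156) and ended there without aggregation (0.0679) or without suspension (0.0549).

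Of 13 described targets of Oct4 and Nanog on the array, 12 were called lower and 0 higher, against 5.38% and 4.56% of all probe sets. Their median was -3.37. Dppa5a (-6.53), an RNA-binding protein of early embryos, read 24760, 24140 and 15530 on the R1 arrays and 179.1 in neurospheres. Fbxo15 (-4.71), an F-box gene used as a reporter of pluripotency, the glucose transporter Slc2a3 (-4.53) and the chromatin-associated Dppa4 (-4.46) followed. Fgf4 (-2.79), the growth factor gene with a known composite site for Oct4 and Sox2, and Lefty1 (-2.60), an inhibitor of Nodal, were lower as well. Dppa3 was not called (-0.45, adjusted p = 0.637) and read 35.26 to 77.51 on all 4 arrays. Tdgf1 (-1.68), with the R1 arrays as a single group, was called on all arrays (adjusted p = 0.00925) and not without aggregation (0.0501) or suspension (0.071). This list shares 8 genes with the ES cell markers above, so their counts are not separate evidence. Without the intensity trend, limma called Nr0b1 alone among the partners and Dppa5a alone among the targets.

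Of 14 chromatin cofactors listed for Oct4 and Sall4, 2 were called lower and 0 higher, against 5.38% and 4.56% of all probe sets. Their median was -0.00 (-0.26 after scaling to the median, 0.03 after quantile normalization), nearer 0 than that of the partners or targets. Hdac1, a histone deacetylase, was at -2.10 and Gatad2a, a NuRD subunit, at -1.16. With the R1 arrays as a single group, Gatad2a was called on all arrays (adjusted p = 0.0391) and not without aggregation (0.158) or suspension (0.126). Neither was called without the intensity trend (adjusted p = 0.0943 and 0.2). Scaling to the median raised the count to 5, and removing dim probe sets raised it to 4. The chromatin remodeller Chd4, for example, read 6426, 5522 and 7215 on the R1 arrays and 6409 in neurospheres. Among 8 genes described as silencers of Pou5f1 or of the network, 1 was called higher and 0 lower, against 4.56% and 5.38% of all probe sets. With so few genes these counts do not set the list apart. Nr2f1, the nuclear receptor COUP-TFI, rose by 4.21 (adjusted p = 0.00348), from 34.02, 19.62 and 10.6 on the R1 arrays to 890.1 in neurospheres. Its suspension and adherent signals lay under the 10th percentile of those arrays, 33.7 and 17.4. Dnmt1 was called lower after scaling to the median (-1.12, adjusted p = 0.0176) and also with dim probe sets removed (-0.86). Without the intensity trend Nr2f1 was not called (adjusted p = 0.0622).

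**Figure D4:**
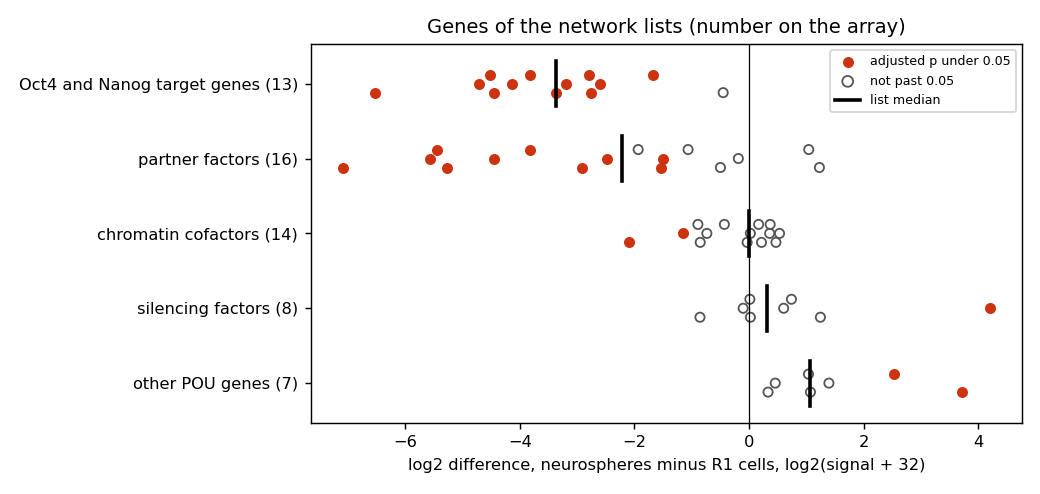
Log2 difference between neurospheres and R1 cells for each gene of the target, partner, chromatin cofactor, silencer and POU lists. Each point is 1 gene, filled where limma called it at an adjusted p under 0.05, and a bar marks the list median. Points of the partner and target lists lie mostly below 0, with medians of -2.21 and -3.37. Those of the chromatin cofactors lie around 0, and Nr2f1, Pou3f3 and Pou3f4 are called above 0.

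Relatives from the same protein families were called lower in 0 cases, against 5.38% of all probe sets, a share too low for this count to set them apart. Among all probe sets, 4.56% were called higher. Of 7 other POU genes on the array, 2 were higher in neurospheres and 0 lower: Pou3f3 (Brn1), a neural factor, rose by 3.72 (adjusted p = 0.0109), from 95.77, 101.3 and 18.63 in aggregation, suspension and adherent cells to 1036, and Pou3f4 (Brn4) rose by 2.52 (adjusted p = 0.0117), from 16.51, 31.09 and 12.43 to 253. Neither was called without the intensity trend (adjusted p = 0.0622 and 0.0814). The R1 signals of Pou3f4 lay under the 10th percentile of each array, 29.5, 33.7 and 17.4. Its difference ran from 1.58 to 3.83 over the settings tried. Pou3f4 also lost its call with dim probe sets removed (adjusted p = 0.19) and, with the R1 arrays as a single group (0.00162 on all arrays), without aggregation (2.43, 0.0642). Among the relatives of Esrrb, Tbx3, Foxd3, Tfcp2l1, Sall4 and Zfp42, 15 genes were on the array and 0 were called either way in limma, with 3 at an unadjusted p under 0.05. Sall3, the single Sall relative measured, read 959.4, 306.2 and 829.4 on the R1 arrays and 2364 in neurospheres (1.76, adjusted p = 0.0736); it was called with dim probe sets removed (adjusted p = 0.00733) and with the R1 arrays as a single group (1.86, 0.00117). Esrra, the relative of Esrrb, read 673.2, 739.7 and 304.3 and 1165 in neurospheres (1.26, adjusted p = 0.0623); it was called with dim probe sets removed (adjusted p = 0.0274) and against the adherent array alone (1.83, 0.0387).

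The genes whose pattern over the 4 arrays was most like that of a given gene were found by the Euclidean distance between log2 values centred on their mean over the arrays, among 8250 other genes. With 4 arrays this distance mostly reflects the size of the neurosphere difference, and it is a description. Nearest to Pou5f1 103075_at were Igf2bp1, an mRNA-binding protein (0.295), Nr0b1 (0.402), Dppa5a (0.807), Rps4l (1.107) and Klf5 (1.171). Nanog was the 11th nearest gene to Pou5f1 and Sall4 the 13th, whereas Esrrb was the 804th and Foxd3 the 1743rd. Nearest to Nanog 161072_at were Mycn (0.117), Sall4 (0.146), Klf5 (0.411), Fbxo15 (0.51) and Csrp2, a LIM protein (0.562). On this scale Sall4 and Nanog 161072_at were thus nearly parallel on all 4 arrays. Their neurosphere differences, -5.01 and -5.16, were -5.79 and -5.43 with 1 added before log2. Nearest to Utf1 were Chchd10, a mitochondrial protein (0.361), Tfap2c, a trophoblast and germ cell factor (0.372), Lima1 (0.475), Mov10 (0.648) and Slc2a3 (0.661). Chchd10 and Tfap2c had lower signals in adherent cells, 15620 and 1632, than in either embryoid body array, where they read 26050 and 26750 and 2302 and 2372. Lima1 and Mov10 were lower there too, whereas Slc2a3 read 5720 in adherent cells and 5702 in aggregation. Since the adherent array was part of the distance, this likeness to Utf1 is built into the choice of genes.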

How the data were processed

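The deposited table holds linear signal intensity per probe set, computed by the authors with MAS5 per the submitters' processing notes; for version, scaling target and detection calls the entry is "not given in the sources used here". The 66 control probe sets were left out, and 10833 of the other 12422 were paired with 1 gene by the platform annotation, 396 with several and 1193 with none. Arrays were brought to a common 2% trimmed mean (500), 32 was added and log2 taken. One limma 3.58.1 model (R 4.3.3; lmFit, eBayes with intensity trend) was fitted to all 12422 without a filter, with embryoid bodies, adherent cells and neurospheres as groups, 1 residual degree of freedom and 8.11 from the prior. The R1 reference for neurospheres gave embryoid bodies and adherent cells equal weight. P-values were two-sided and Benjamini-Hochberg adjusted over all probe sets, with a threshold of 0.05. The number of arrays limits the precision.

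The genes, lists and motifs were chosen with earlier results of these data known. Beside the 9 genes, the text names up to 4 called genes per list with the largest differences, or the 2 brightest of a list without a call, on the brightest probe set of a gene; for the 3 genes brightest in R1 cells it names the 5 nearest patterns. Other list genes were named after their values were seen: Sox2, Stat3, Myc, Zfp281, Trim28, Fgf4, Lefty1, Dppa3, Tdgf1, Chd4 and Dnmt1. Further lists gave the following counts of called genes in neurospheres. Of 7 neuron markers 1 was higher (Map2) and of 4 primed epiblast markers 1 was higher (Sox3), with 0 lower in both. Among all probe sets 4.56% were called higher and 5.38% lower, and with so few genes these counts do not set either list apart. Without the intensity trend neither gene was called in limma (adjusted p = 0.0673 for Map2 and 0.0909 for Sox3). Map2 also lost its call with dim probe sets removed (adjusted p = 0.0517), whereas Sox3 kept it (0.00035). Of the 8 endoderm, 6 streak and 8 fibroblast markers 0 were called, with 1, 0 and 2 at an unadjusted p under 0.05 in limma. The code was tested on simulated data. Figures were drawn with matplotlib 3.10.9.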

Additional observations from a re-analysis of the deposited data

How the results depend on the processing

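The count of 1235 probe sets called between neurospheres and R1 cells (567 higher, 668 lower) was 10 (5 and 5) without the intensity trend, 1617 (521 and 1096) after scaling to the median and 914 (381 and 533) after quantile normalization. Taking the R1 arrays as a single group gave 1231, and leaving out 1 embryoid body array in that grouping, since 3 groups then leave no residual degree of freedom, gave 715 (without aggregation) to 885 (without suspension). Of the 12 pluripotency probe sets, 7 were called; without the trend 1 was, and with R1 as a single group 8 were, or 6 to 7 without an embryoid body array. In embryoid bodies against adherent cells the count of 0 became 10 (2 higher, 8 lower) after scaling to the median, 28 (21 and 7) with dim probe sets removed and 24 (18 and 6) with the brightest probe set per gene of those; 0 of the 12 were called under any of these. With 100 added before log2, 0 of the 12 were 2-fold apart between aggregation and suspension, in place of 1. The cause of these changes was not tested, apart from the fewer probe sets tested after the filter. For single probe sets, 234 alternatives kept the side of the threshold or, untested, moved by less than the replicate spread, 8 lost the call, 5 gained it and 2 moved in value. The sign turned in 3 of these, for Esrrb, Sall4 and Tbx3 between embryoid bodies and adherent cells, as given with the results. Leaving out an embryoid body array from that comparison left no residual degree of freedom, so it gave values only. No paired analysis was possible because the labels give no replicate numbers. The single neurosphere and adherent arrays limit what can be said. So do signals under the 10th percentile of an array, as for Tbx3 in neurospheres and Pou3f4, Nr2f1 and Map2 on R1 arrays.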
